A study of Mus musculus with 10 samples.

Results

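Neural progenitor and Notch genes are described here across mouse cortical cultures that received a virus carrying Gata1 or a control virus. The 10 genes were taken by name from the mRNA tables, out of 40904 gene symbols: the ligand gene Dll1, the receptor gene Notch1, the Notch target genes Hes1, Hes5 and Hey1, the transcription factor genes Sox2 and Pax6, the intermediate filament genes Nes and Vim, and the fatty acid binding protein gene Fabp7. Each had 1 row per table. All 10 were listed and all reached a mean of 1 FPKM, the minimum for a comparison (FPKM is the number of fragments scaled for transcript length and library size, so that levels of different genes can be ordered).

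The AAV-Gata1 group is primary cortical neurons prepared from E14 embryos of ICR mice, given an adeno-associated virus (AAV) with Gata1, a blood cell transcription factor, and collected at day 11 in vitro. The AAV-Control group is the same kind of culture given AAV-Control. Each group had 1 mRNA library, so the differences below could not be tested or checked against replicates. The promoter in the virus, the number of embryos and the share of cells reached by the virus are not stated in the sources.

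Notch signalling passes between neighbouring cells. A ligand such as Dll1 on one cell binds a Notch receptor on the next, the receptor is cut, and its inner part enters the nucleus, where it joins the DNA-binding protein RBPJ and switches on Hes and Hey genes. Their products repress genes that drive neuronal differentiation, which keeps radial glia, the stem cells of the embryonic cortex, from turning into neurons too early. Sox2 and Pax6 are transcription factor genes of these cells, and Nes, Vim and Fabp7 encode proteins by which they are recognised; Sox2, Vim, Fabp7 and the Hes genes are also used by astrocytes.

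Promoter sequences from RefSeq (GRCm38.p6) were at hand for 8 of the 10 genes, in 10 windows of 300 bases that run from 250 bases before the transcription start to 50 bases after it. Hes1 and Hey1 are named only. Hes5 and Fabp7 are shown because their windows hold the RBPJ motif TGGGAA, in capitals on either strand, and the second window of Pax6 because it holds the single GATA motif among the 10 windows, in capitals. Hes5 lies at chr4:154960673-154960972 on the plus strand, Fabp7 at chr10:57784673-57784972 on the plus strand and the Pax6 window at chr2:105682213-105682512 on the plus strand.
Hes5: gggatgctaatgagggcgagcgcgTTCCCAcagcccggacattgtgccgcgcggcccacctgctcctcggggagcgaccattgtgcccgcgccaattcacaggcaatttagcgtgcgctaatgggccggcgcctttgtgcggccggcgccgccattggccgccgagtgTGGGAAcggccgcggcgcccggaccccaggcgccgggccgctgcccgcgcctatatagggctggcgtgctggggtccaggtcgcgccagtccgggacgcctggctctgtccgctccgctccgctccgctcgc
Fabp7: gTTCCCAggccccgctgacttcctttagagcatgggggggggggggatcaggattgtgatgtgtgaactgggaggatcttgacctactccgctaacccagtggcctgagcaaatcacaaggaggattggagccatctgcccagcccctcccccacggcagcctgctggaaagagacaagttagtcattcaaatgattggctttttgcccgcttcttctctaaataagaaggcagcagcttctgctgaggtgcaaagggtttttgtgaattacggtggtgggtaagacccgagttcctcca
Pax6: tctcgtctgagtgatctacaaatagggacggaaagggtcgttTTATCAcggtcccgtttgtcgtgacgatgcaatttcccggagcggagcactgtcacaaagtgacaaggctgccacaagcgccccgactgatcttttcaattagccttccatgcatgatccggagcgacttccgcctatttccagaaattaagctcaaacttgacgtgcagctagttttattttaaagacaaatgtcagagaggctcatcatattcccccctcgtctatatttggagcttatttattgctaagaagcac

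In the Hes5 window the RBPJ motif stood at 82 bases before the start on the plus strand and at 226 bases before it on the minus strand. The Fabp7 window had it at 249 bases before the start, on the minus strand. These were 2 of the 10 windows, while 25.6% of all 32851 promoter windows hold the motif on either strand. The GATA motif, searched on both strands as AGATAA and TGATAA and as the forms of each that end in G, was in 1 of the 10 windows and in 29.8% of all of them. The N-box CACNAG, a motif bound by HES proteins, was in 5 of the 10 windows and in 42.5% of all; those were the windows of Notch1, Vim, Fabp7, 1 of the 2 of Dll1 and 1 of the 2 of Pax6. In Notch1 it matched 3 times, of which 2 matches overlap on opposite strands at the start. CG pairs numbered 6 in the Fabp7 window and 41 in that of Hes5, with a median of 18 over the 10 windows and of 7 over all windows. Their G and C content ran between 46.3% and 72.7% (median 59.0%; all windows 52.7%). A motif match describes the letters in the window and is not a binding site.

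The cultures held a high level of glial mRNA, part of it from genes that progenitors and astrocytes share, beside neuronal mRNA. The summed levels were 476848 FPKM in the AAV-Gata1 library and 476398 FPKM in the AAV-Control library. Gata1 was at 2.07 FPKM in the AAV-Gata1 library and listed at 0 in the AAV-Control library, which goes the way of the labels. Of 12 neuronal markers 11 were measured, among them Map2, which encodes a dendritic microtubule protein, at 236 FPKM in AAV-Gata1 and 240 FPKM in AAV-Control. The astrocyte gene Gfap stood at 897 and Slc1a3, a glutamate transporter gene shared by radial glia and astrocytes, at 610 FPKM in AAV-Gata1, against 887 and 607 FPKM in AAV-Control. Glial mRNA thus stood beside neuronal mRNA in cultures labelled as neurons. In such bulk RNA, fewer cells of a type and less RNA per cell cannot be told apart.

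Among the 10 genes, levels spanned a range from Dll1 to Vim in both libraries. Vim, which encodes vimentin, was the highest, at 1357 FPKM in AAV-Gata1 and 1280 FPKM in AAV-Control. It ranked 14 among all gene symbols in AAV-Gata1 and 15 in AAV-Control. Fabp7, whose product binds fatty acids in radial glia and astrocytes, followed at 573 FPKM in AAV-Gata1 and 576 FPKM in AAV-Control. Vim and Fabp7 gave 86.4% of the summed level of the 10 genes in AAV-Gata1 and 86.7% in AAV-Control. Sox2 and Pax6 came next in both libraries. Places 5 to 7 were taken by Hey1, Nes and Notch1, places 8 and 9 by Hes1 and Hes5, and Dll1 was last in both libraries. Only 2 neighbouring pairs stood in a different order in AAV-Gata1 than in AAV-Control: Hey1 above Nes, and Hes1 above Hes5. Without replicates the spread of each level is unknown, so no neighbours in that order can be called different.

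**Figure D1:**
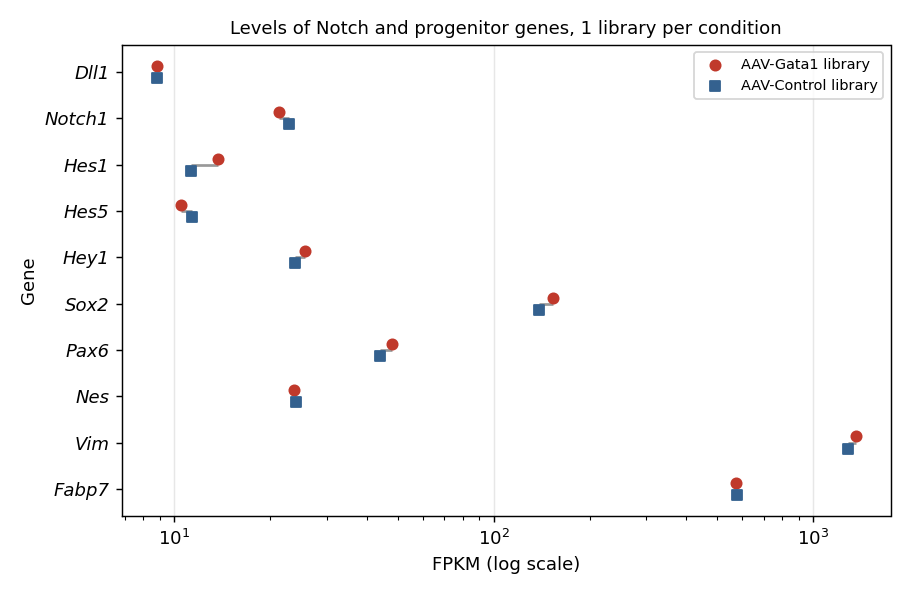
FPKM (log axis) of the 10 genes in the AAV-Gata1 library (circles) and the AAV-Control library (squares), 1 library each, joined by a grey line. The paired points lie close together for every gene, and Hes1, at 13.7 FPKM in AAV-Gata1 and 11.32 FPKM in AAV-Control, is the pair furthest apart in proportion.

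None of the 10 genes was 1.2-fold apart between the conditions on the scale used for all genes, log2((AAV-Gata1 + 1)/(AAV-Control + 1)) of the FPKM, which understates differences of low genes. Over all 13740 genes whose mean reached 1 FPKM, 3.29% were at least 1.2-fold higher, 3.98% at least 1.2-fold lower, and 0.517% at least 2-fold apart in either direction. A count of 0 of 10 is near what these shares give, and is no result about the genes. Hes1 lay just inside that limit and passed it with a pseudocount of 0.1 FPKM (log2 ratio 0.27) or with the ratios centred on their median (0.26). By any amount, 6 of the 10 were higher and 4 lower in AAV-Gata1, where 45.3% of all genes were higher. The median log2 ratio was 0.042, against −0.013 over all genes, so that centring on that median adds 0.013 to each ratio. The median size of the log2 ratio, without its sign, was 0.099 for the 10 genes and 0.073 for all genes.

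**Figure D2:**
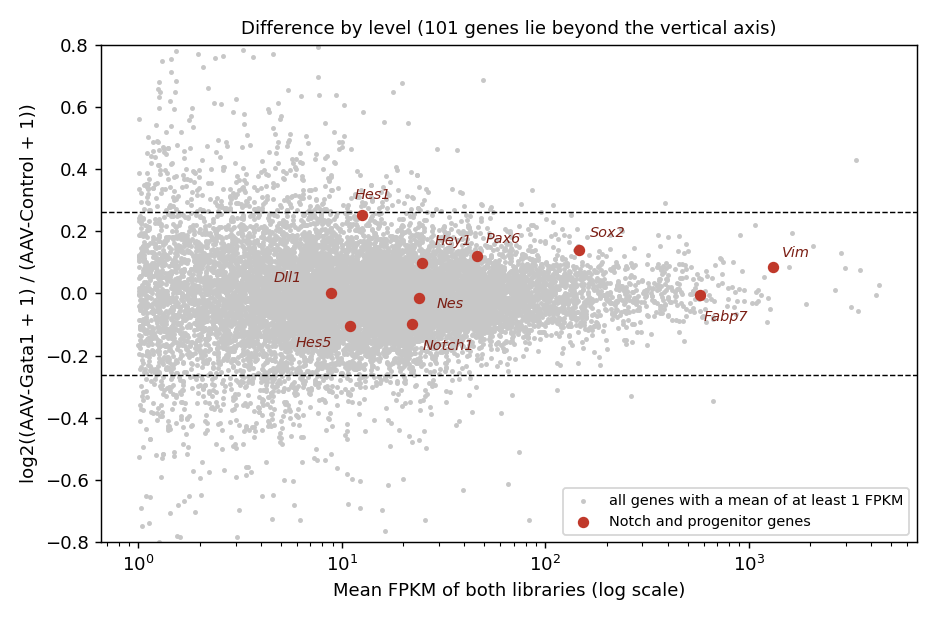
Log2 ratio of AAV-Gata1 over AAV-Control (vertical axis, 1 FPKM added to each value) by mean FPKM (log axis) for all 13740 genes (grey) and the 10 genes (red), with dashed lines at 1.2-fold. The red points lie between the lines, with Hes1 just under the upper one.

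Dll1, the ligand gene among them, was nearly equal in both libraries, at 8.832 FPKM in AAV-Gata1 and 8.828 FPKM in AAV-Control (log2 ratio 0.00060). Among the 5 ligand genes it was the highest and gave 38.4% of their summed level in AAV-Gata1 and 38.1% in AAV-Control. Dll3, whose product acts inside cells and does not activate Notch in neighbours, stood at 6.17 FPKM in AAV-Gata1 and 6.05 FPKM in AAV-Control. Jag2 was at 4.78 and Jag1 at 2.03 FPKM in AAV-Gata1, against 4.97 and 2.35 FPKM in AAV-Control. Dll4, a ligand gene best known from blood vessels, was at 1.19 FPKM in AAV-Gata1 and 0.985 FPKM in AAV-Control. The 5 ligand genes thus had 3 higher and 2 lower values, with a median log2 ratio of 0.00060, and the summed level was 23.0 FPKM in AAV-Gata1 and 23.2 FPKM in AAV-Control.

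Notch1 stood at 21.3 FPKM in AAV-Gata1 and 22.8 FPKM in AAV-Control, a log2 ratio of −0.099. Of 5312 other genes with a mean within 2-fold of that of Notch1, 30.9% were at least as far apart in either direction. Notch2 was the most abundant receptor mRNA, at 39.9 FPKM in AAV-Gata1 and 41.0 FPKM in AAV-Control. It made up 63.7% of the summed receptor level in AAV-Gata1 and 62.5% in AAV-Control, and Notch1 34.0% in AAV-Gata1 and 34.8% in AAV-Control. Notch3, a receptor gene known from the mural cells of blood vessels, was at 1.22 FPKM in AAV-Gata1 and 1.36 FPKM in AAV-Control. Notch4, known from endothelium, was at 0.239 FPKM in AAV-Gata1 and 0.440 FPKM in AAV-Control, below the minimum for a comparison. All 3 receptor genes compared were lower in AAV-Gata1, by at most 0.099 on the log2 scale. Over all genes compared, 45.3% were higher. Among genes within 2-fold of their levels, 64.9% were at least as far apart as Notch2 and 63.7% as Notch3. So 3 lower values are no result about the receptors. The Dll1 level was 0.415 of the Notch1 level in AAV-Gata1 and 0.387 in AAV-Control, a ratio within a library that no scaling between libraries alters.

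The Notch target genes did not share a direction. Hes1, which encodes a repressor of proneural genes, stood at 13.7 FPKM in AAV-Gata1 and 11.32 FPKM in AAV-Control, 20.8% higher in FPKM, with a log2 ratio of 0.25. Among 5639 other genes within 2-fold of its mean level, 5.50% were at least as far apart in either direction. Hes5, the related repressor gene of radial glia, stood at 10.5 FPKM in AAV-Gata1 and 11.35 FPKM in AAV-Control (log2 ratio −0.10), and 35.9% of genes near its level were at least as far apart. Hey1, a repressor gene of the same superfamily, was at 25.6 FPKM in AAV-Gata1 and 23.8 FPKM in AAV-Control (log2 ratio 0.098; 30.2% of like genes as far apart). Hes1 and Hey1 were thus higher, and Hes5 was lower.

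Nrarp, whose product dampens Notch signals and is itself switched on by them, stood at 7.73 FPKM in AAV-Gata1 and 9.38 FPKM in AAV-Control. Its log2 ratio of −0.25 was as large as that of Hes1 and of opposite sign. Hey2 was at 1.73 FPKM in AAV-Gata1 and 1.60 FPKM in AAV-Control, and Heyl, at 0.0296 FPKM in AAV-Gata1 and 0.182 FPKM in AAV-Control, was too low to compare. The 5 targets compared had a median log2 ratio of 0.068, which turned to −0.017 when Heyl was included and to −0.0027 without genes under 5 FPKM. Hes5 and Hes1 stood at a Hes5 to Hes1 ratio of 0.768 in AAV-Gata1 and 1.002 in AAV-Control, where they were level. The Hey1 to Hes1 ratio was 1.87 in AAV-Gata1 and 2.11 in AAV-Control.

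**Figure D3:**
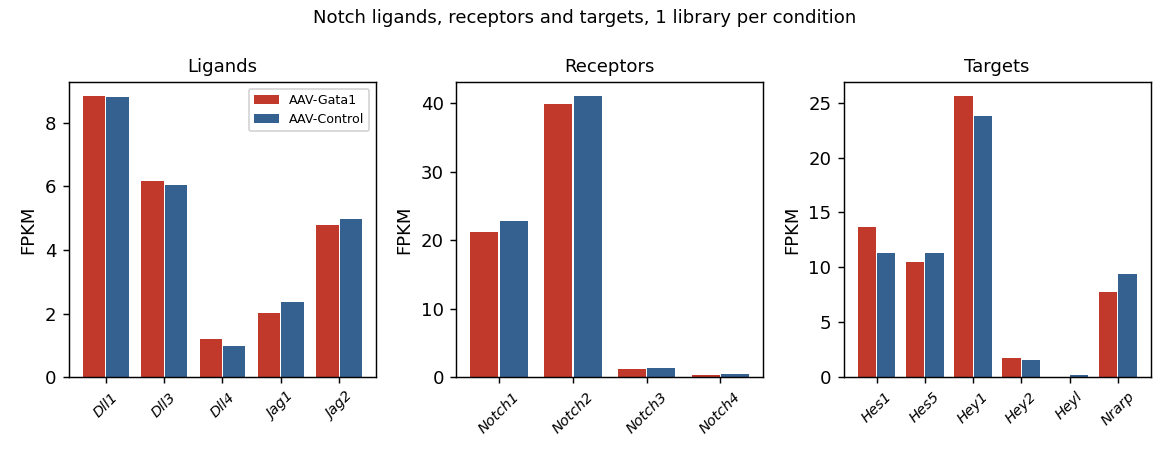
FPKM of the genes of Notch ligands, receptors and targets in the AAV-Gata1 library (red, left) and the AAV-Control library (blue, right), 1 library each, on linear axes that start at 0. Dll1, Notch2 and Hey1 are the highest of their families in both libraries, and among the targets Hes1 and Hey1 are higher while Hes5 and Nrarp are lower in AAV-Gata1.

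The rest of the Notch pathway showed small differences in both directions. Of 46 further genes of the pathway 44 were compared. In AAV-Gata1 18 of them were higher and 26 lower, 0 reached 1.2-fold either way, and their median log2 ratio was −0.012. Among all 13740 genes 45.3% were higher and the median was −0.013, so neither the split nor the median sets the pathway apart. The 1.2-fold limit was passed upward by 3.29% of all genes and downward by 3.98%. The 0 was not tested against these shares. Of the 4 ubiquitin ligase genes for ligand uptake, 2 were higher and 2 lower (median 0.00030, which turned to −0.00012 with a pseudocount of 0.1 FPKM), with Mib1 at 23.2 FPKM in AAV-Gata1 and 23.1 FPKM in AAV-Control. The others were Mib2 (log2 ratio 0.047), Neurl1a (−0.020) and Neurl1b (−0.0057). Mib1 encodes the main ligase for Notch ligands in mice.

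Genes that cut the receptor gave 4 higher and 6 lower values (median −0.0084, turning to 0.0042 with centring). Adam17, which encodes a sheddase, stood at 17.7 FPKM in AAV-Gata1 and 16.0 FPKM in AAV-Control. Subunit genes of gamma-secretase, the protease within the membrane, included Psen2 at 13.6 FPKM in AAV-Gata1 and 15.5 FPKM in AAV-Control, Ncstn at 32.3 FPKM in AAV-Gata1 and 35.7 FPKM in AAV-Control, and Aph1c at 2.06 FPKM in AAV-Gata1 and 2.60 FPKM in AAV-Control. Those 3 subunit genes were lower, and Aph1c is a close copy of Aph1b, so reads may be split between them.

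Of 5 receptor glycosylation genes 4 were higher (median 0.063). Mfng, a fringe gene whose product alters which ligands Notch answers to, was at 5.63 FPKM in AAV-Gata1 and 4.63 FPKM in AAV-Control. Its relatives Lfng (log2 ratio 0.089) and Rfng (0.0020), and the sugar transferase genes Pofut1 (0.063) and Poglut1 (−0.0043), were closer to 0. In the nuclear complex 4 of 9 genes were higher (median −0.019). Rbpj, which encodes the DNA-binding partner of Notch, was at 21.4 FPKM in AAV-Gata1 and 19.9 FPKM in AAV-Control. The acetyltransferase gene Kat2b stood at 15.6 FPKM in AAV-Gata1 and 13.7 FPKM in AAV-Control, while the corepressor gene Spen (15.1 FPKM in AAV-Gata1 and 16.6 FPKM in AAV-Control) was lower. Of 8 further regulators 7 were lower (median −0.066), among them Dtx4 (log2 ratio −0.094), Dtx3 (−0.074) and the Notch inhibitor gene Numb (−0.072), while Itch, a ubiquitin ligase gene, was higher (0.078).

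Sox2, a gene that keeps neural stem cells in their state, stood at 153 FPKM in AAV-Gata1 and 139 FPKM in AAV-Control, a log2 ratio of 0.14. Of 969 other genes within 2-fold of its level, 8.26% were at least as far apart in either direction. Pax6, which patterns the dorsal cortex and drives neurogenesis there, stood at 48.1 FPKM in AAV-Gata1 and 44.2 FPKM in AAV-Control (log2 ratio 0.12; 17.1% of like genes as far apart). Both transcription factor genes were higher in AAV-Gata1, and the Pax6 to Sox2 ratio was 0.315 in AAV-Gata1 and 0.319 in AAV-Control. Sox2 overlaps the noncoding gene Sox2ot in RefSeq, which stood at 19.2 FPKM in AAV-Gata1 and 19.9 FPKM in AAV-Control, so that it was lower where Sox2 was higher. Pax6 overlaps Pax6os1 (0.824 FPKM in AAV-Gata1 and 0.924 FPKM in AAV-Control) and Elp4 (30.97 FPKM in AAV-Gata1 and 31.28 FPKM in AAV-Control), and Notch1 overlaps 0610009E02Rik (3.79 FPKM in AAV-Gata1 and 2.81 FPKM in AAV-Control). Hey1 overlaps LOC115489673, which has no value here, and the remaining 6 genes overlap no other RefSeq gene. These neighbours were looked up after the values were seen. Nothing in the sources says whether fragments were counted by strand, so shared reads cannot be assigned.

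Nes, which encodes nestin, was nearly equal, at 23.8 FPKM in AAV-Gata1 and 24.0 FPKM in AAV-Control (log2 ratio −0.013). Vim had a log2 ratio of 0.084, and 29.3% of 41 genes near its level were at least as far apart. Nes was 0.0175 of Vim in AAV-Gata1 and 0.0187 in AAV-Control. Among 10 intermediate filament genes 8 were compared, with 4 higher and 4 lower values (median 0.00097, which turned to −0.013 without genes under 5 FPKM). The neuronal filament gene Ina stood at 50.1 FPKM in AAV-Gata1 and 56.3 FPKM in AAV-Control, and Nefl at 10.2 FPKM in AAV-Gata1 and 10.9 FPKM in AAV-Control, while Prph was at 1.51 FPKM in AAV-Gata1 and 1.22 FPKM in AAV-Control.

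Fabp7 had a log2 ratio of −0.0058, whose sign turned with centring (0.0069). The Fabp7 to Sox2 ratio was 3.75 in AAV-Gata1 and 4.15 in AAV-Control. Of the related genes, Fabp5 stood at 302 FPKM in AAV-Gata1 and 308 FPKM in AAV-Control, and Fabp3 at 25.8 FPKM in AAV-Gata1 and 28.1 FPKM in AAV-Control. Fabp4, known from fat cells and macrophages, was at 14.8 FPKM in AAV-Gata1 and 12.1 FPKM in AAV-Control, and was the 1 gene of this family at least 1.2-fold apart.

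Other genes of cortical progenitors were also mixed. Of 22 genes, 13 were higher and 9 lower, with a median log2 ratio of 0.021. Sox21 stood at 32.4 FPKM in AAV-Gata1 and 27.9 FPKM in AAV-Control, and Sox3, a close relative of Sox2, at 9.76 FPKM in AAV-Gata1 and 8.58 FPKM in AAV-Control. The homeobox genes Emx1 and Emx2, which pattern the cortex, went in opposite directions: Emx1 was at 22.8 FPKM in AAV-Gata1 and 19.6 FPKM in AAV-Control, and Emx2 at 15.6 FPKM in AAV-Gata1 and 18.6 FPKM in AAV-Control. A list of proneural, neuronal differentiation and intermediate progenitor genes had 7 lower and 2 higher values among the 9 of 11 compared. Its median was −0.018. Over all genes 45.3% were higher and the median was −0.013, and the split was not tested against that share. HES proteins repress several of the listed genes in progenitors, and a link to the Hes1 value was not tested. Neurod2 (log2 ratio −0.072) and Insm1 (−0.045) were lower, and Neurod6 was higher (0.037). Neurod2 and Neurod6 are genes of differentiating neurons. Of 16 proliferation genes 10 were higher (median 0.020), with the cyclin gene Ccnd1 at 18.7 FPKM in AAV-Gata1 and 16.5 FPKM in AAV-Control. Tyms (0.089), Bub1 (0.088) and Aurkb (−0.090) were closer to 0 on the log2 scale.

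Markers of other cell types differed beside these values. All 10 compared microglia markers of 12 were higher in AAV-Gata1 (median log2 ratio 0.22), among them Ctss (29.1 FPKM in AAV-Gata1 and 22.8 FPKM in AAV-Control), Cx3cr1 (18.2 FPKM in AAV-Gata1 and 14.6 FPKM in AAV-Control), Trem2 (log2 ratio 0.28) and C1qb (0.26). The summed level of all 12 was 529 FPKM in AAV-Gata1 and 450 FPKM in AAV-Control, while the defining markers P2ry12 (0.117 FPKM in AAV-Gata1 and 0.178 FPKM in AAV-Control) and Tmem119 (0.154 FPKM in AAV-Gata1 and 0.0738 FPKM in AAV-Control) were near 0. The log2 ratio of Hes1 falls within the range of these markers (0.035 to 0.34), and so do those of Hey1, Sox2, Pax6 and Vim. That range is wide, and the share of all genes within it was not counted. A ratio inside it therefore does not tie a gene to microglia. Hes1, Vim and Fabp4 can be expressed by myeloid cells, and the part of microglia in their values was not tested.

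Astrocyte markers, which share Sox9 and Slc1a3 with the progenitor list, had 5 higher and 6 lower values (median −0.027), and all 12 summed to 2565 FPKM in AAV-Gata1 and 2574 FPKM in AAV-Control. Slc4a4 was the furthest apart, at 31.7 FPKM in AAV-Gata1 and 37.9 FPKM in AAV-Control, followed by S100b (log2 ratio −0.11), Slc1a2 (−0.052) and Aqp4 (0.045). Of 11 neuronal markers 10 were lower (median −0.057; summed level 1090 FPKM in AAV-Gata1 and 1130 FPKM in AAV-Control), with Eno2 (−0.15), Elavl3 (−0.14), Syt1 (−0.14) and Rbfox3 (−0.11) furthest apart. Of 10 compared markers of the oligodendrocyte lineage 7 were lower (median −0.060; summed level of all 12, 295 FPKM in AAV-Gata1 and 309 FPKM in AAV-Control), with Gpr17 (−0.25), Sox10 (−0.23), Olig2 (−0.17) and Pdgfra (−0.0995) furthest apart. Of 8 endothelial markers 3 were compared, Egfl7 (0.15), Kdr (−0.11) and Slco1a4 (−0.13), while Cldn5 and Cdh5 were near 0. Of 10 pericyte and fibroblast markers 4 were compared, with 3 lower, and all 10 summed to 87.7 FPKM in AAV-Gata1 and 104 FPKM in AAV-Control. Acta2, a smooth muscle actin gene, was at 60.7 FPKM in AAV-Gata1 and 76.4 FPKM in AAV-Control; Dcn (−0.13), Pdgfrb (−0.0030) and Cspg4 (0.020) were closer, and Col1a1 was low in both libraries (0.293 FPKM in AAV-Gata1 and 0.254 FPKM in AAV-Control). Vim is expressed by such cells as well, and their part in its value was not tested.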

How the data were processed

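Values were taken from 1 mRNA library per condition. The other 8 of the 10 samples, small RNA, histone mark and input libraries, were not used here. Total RNA was made into stranded mRNA libraries for paired-end reads, per the labels' protocols. The authors deposited FPKM, per the file headers. The submitters' processing notes name, without roles, the builds mm9 and mm10 and, among other tools, Cuffdiff 2.1.1, Cufflinks 2.1.1 and TopHat2 2.1.1. The sources state neither the strand setting nor any further scaling.

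Each table held 40993 rows; 6 had no gene symbol (0.0113% of the FPKM in AAV-Gata1 and 0.0122% in AAV-Control) and were left out. The highest-mean row per symbol was kept. Genes whose mean reached 1 FPKM were compared as log2((AAV-Gata1 + 1)/(AAV-Control + 1)), with Python 3.11.15 and pandas 2.3.3. The arithmetic was checked on simulated data with changes larger than 1.2-fold and little spread. That check says nothing on how reliable a difference of 1.2-fold is in these libraries. A fold of 1.2 or 2 served as a rule of size. With 1 library per group there is no test, p-value or error. Among the 1274 lowest genes (above 0 but below 0.1 FPKM in each library), at most 43 agreed in their log2 ratio to within 0.02. That count was not set against an expected one. It cannot show whether the values move in steps of whole fragments, and the depth is unknown.

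The genes and lists were chosen with earlier results of these data known. The text names the 10 genes, Gata1, all genes of lists of 6 or fewer, and up to 4 of each longer list by size of the log2 ratio; Map2, Gfap, Slc1a3, overlapping genes and low markers were named after their values were seen. Of the genes this rule takes, 2 are not reported here. No gene is named for a like pattern, which 2 libraries cannot measure. Alternatives were the pseudocount, the minimum level, centring on the median, upper quartile scaling and summed rows.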

Additional observations from a re-analysis of the deposited data

How the results depend on the processing

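No paired analysis was possible because each condition had 1 mRNA library, and for the same reason no library could be left out. Of 238 values recomputed under 7 alternatives, 233 stayed within 0.1 on the log2 scale or within 1.5 times the count. Much of this was fixed in advance. Each of the 10 genes had 1 row and a mean above 5 FPKM, so the minimum level and summed rows could not change their ratios. The tolerance of 0.1 was also no smaller than the median size of their log2 ratios (0.099). The count of 233 therefore does not measure how firm the ratios are. The number of the 10 genes at least 1.2-fold higher was 0 as reported and 1, Hes1, with a pseudocount of 0.1 FPKM, with centring, with upper quartile scaling and with no pseudocount, the last of which was added after the data were seen. The endothelial median was −0.11 as reported and 0.053 with no minimum level. The sign differed in 13 of the values. Among them were the median over all genes, which centring sets to 0, and the pericyte and fibroblast median. The latter was −0.066 as reported and 0.027 with no minimum level. The rest were near 0 or from lists of few genes. Among the 10 genes the sign differed for Fabp7, under centring and upper quartile scaling (0.0069 and 0.0073), where 7 of the 10 were higher. Over all genes, 452 were at least 1.2-fold higher and 547 lower; these were 679 and 810 with a pseudocount of 0.1 FPKM, 683 and 835 with none, 850 and 1032 with no minimum, and 193 and 240 at a minimum of 5 FPKM. With 1 library of unknown depth per condition, differences of this size cannot be set against the spread between cultures.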
